A study of Mus musculus with 2 samples.

Results

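The calcium/calmodulin-dependent kinases described here are the 7 genes *Camk2a*, *Camk2b*, *Camk2d*, *Camk2g*, *Camk4*, *Camk1d* and *Camkk2*, taken by symbol from the 32285 genes counted in single nuclei of the mouse hippocampus. Nuclear RNA was measured with 10x Genomics 3′ chemistry in 9-month-old males of 2 genotypes. PS19 mice carry the P301S human tau transgene, which the prion protein promoter drives, and wild-type *Zbp1*, and PZKO mice carry the same transgene and lack *Zbp1*, which encodes a sensor of left-handed nucleic acids. Both groups are therefore tau transgenic, and no group without the transgene enters the comparison. Each genotype is 1 library from the hippocampi of 5 males, and the counts carry no label of the animal a nucleus came from. Differences between PZKO and PS19 are consequently given as values with counting error only, without a test, and they compare 2 libraries.

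Calcium that enters a neuron binds calmodulin, and calcium-loaded calmodulin opens and activates these kinases. CaMKII is a ring-shaped holoenzyme built from α, β, γ and δ subunits, encoded by *Camk2a*, *Camk2b*, *Camk2g* and *Camk2d*, and in hippocampal excitatory synapses it phosphorylates receptors and scaffolds and is needed for long-term potentiation. CaMKK2 phosphorylates and activates CaMKIV (*Camk4*), a mostly nuclear kinase that acts on CREB, and the CaMKI kinases, of which *Camk1d* encodes the δ form.

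The genes lie on different chromosomes of the mm10 build, except that *Camk2a* and *Camk4* are both on chromosome 18. *Camk2b* spans chr11:5969644-6066362 on the minus strand, *Camk2d* chr3:126596302-126846326 on the plus strand and *Camk2g* chr14:20734875-20794088 on the minus strand. *Camk1d* spans chr2:5293457-5714515 and *Camkk2* chr5:122731170-122779409, both on the minus strand. Gene lengths ran from 48.2 kb for *Camkk2* to 421 kb for *Camk1d*. Nuclear RNA holds many unspliced transcripts and a count depends on gene length and priming, so levels are compared between classes within a gene and not between genes. *Camk2d* and *Camk4* each overlap an antisense gene, *Gm15551* and *2310026I22Rik*, and the strand setting of the counting is not given in the sources used here.

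The PS19 library held 11469 nuclei with a median of 5642 unique molecular identifiers (UMIs) and the PZKO library 10920 nuclei with a median of 8343. After the filters and removal of predicted doublets, 9590 and 9307 nuclei remained, of which 29 barcodes occurred in both libraries. *Zbp1* itself had 92 UMIs in the kept PS19 nuclei and 38 in the kept PZKO nuclei (0.915 and 0.250 CPM, a unit that brings all classes to one total count), and a 3′ tag outside a deleted segment would still be counted. Mitochondrial transcripts made up 0.598% of UMIs in PS19 and 0.351% in PZKO. Nuclei were placed in 18 classes named from markers, and 3 further neuronal groups are called by their leading genes (*Il1rapl2* and *Dpp10*, *Tshz2* and *Npsr1*, both excitatory, and *Cpa6* and *Ano2*, inhibitory). For 14 of the 18 classes the summed level of the class's own markers was higher than in any other class in both libraries. The exceptions were Lhx6 interneurons, subiculum, upper-layer cortex and, in the PS19 library, deep-layer Foxp2 Hs3st4 neurons. Upper-layer and deep-layer cortical markers mark nuclei outside the hippocampus proper in a tissue labelled hippocampus.

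*Camk2a*, the α subunit, was highest in dentate granule neurons, at 1396 CPM in PS19 (21388 UMIs) and 1511 CPM in PZKO (16883 UMIs). CA1 pyramidal neurons followed at 1271 and 1242 CPM and CA3 pyramidal neurons at 1071 and 1032 CPM. These first levels in the order were each separate from the next, by 95% Poisson intervals in both libraries, down to CA3, which did not separate from upper-layer cortex neurons at 898 and 1017 CPM. Near-projecting Tshz2 neurons, at 282 and 324 CPM, had the lowest level of the excitatory subtypes and were not separate from Adarb2 interneurons at 312 and 368 CPM. Lhx6 interneurons stood at 256 and 253 CPM. The inhibitory group led by *Cpa6* and *Ano2* had 622 and 520 CPM.

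*Camk2b*, the β subunit that binds actin, kept nearly the same order. Dentate granule neurons had 698 CPM in PS19 and 700 CPM in PZKO, CA1 neurons 406 and 384 CPM, and CA3 neurons 374 and 342 CPM, each separate from the next. The other excitatory subtypes lay between 169 and 246 CPM, and the interneuron classes between 103 and 143 CPM. Over the 21 groups, the log2(CPM + 1) levels of *Camk2a* and *Camk2b*, averaged over both libraries, had a Pearson correlation of 0.957, a description over groups that share 2 libraries and their depth. The non-neuronal classes enter this value with the background described below.

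In the 9 non-neuronal classes *Camk2a* stood at 4.0% to 23.3% of its level in all excitatory neurons and *Camk2b* at 4.9% to 39.5%. The 10 excitatory neuron markers in those same nuclei had median levels of 5.9% to 26.2% of theirs, and free RNA in droplets leaves neuronal UMIs in every class. Pooled over classes these values are not read as expression. By class, *Camk2b* stood above the marker median in both libraries in OPC, with 18.9% and 21.1% beside 10.0% and 10.6%. The same held in oligodendrocytes (13.3% and 13.7% beside 12.6% and 10.2%) and ependymal cells (10.4% and 13.5% beside 10.2% and 7.77%). In a single library it was above in mural cells (PS19, 39.5% beside 26.2%), vascular leptomeningeal cells, microglia and astrocytes. *Camk2a* stood above the marker median in both libraries in astrocytes (9.24% and 9.66% beside 7.91% and 9.37%). In PZKO alone it did so in oligodendrocytes, microglia and ependymal cells. Background and a low level cannot be told apart in these classes. Nuclei with at least 2000 UMIs were thinned to 2000, and shallower nuclei were left out. *Camk2a* then had a UMI in 91.7% of PS19 and 92.6% of PZKO dentate granule nuclei. In microglia the shares were 16.9% and 22.9%. Unthinned median depths over all nuclei were 14681 and 20603 UMIs in dentate granule neurons and 3307 and 4180 UMIs in microglia.

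**Figure D1:**
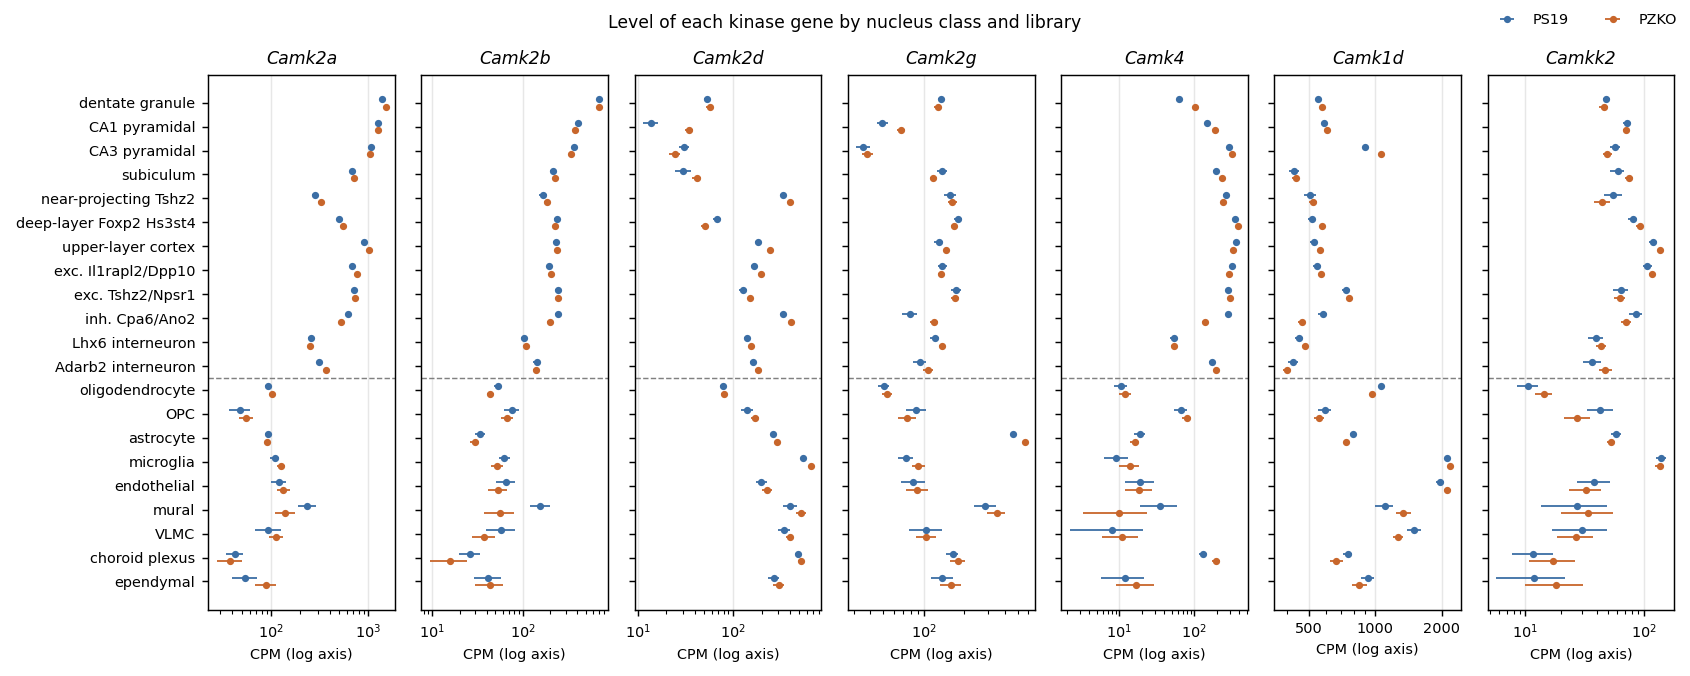
Level of each kinase gene in 21 nucleus classes, in CPM on log axes, for the PS19 library (blue) and the PZKO library (orange); points are summed counts and bars are exact 95% Poisson intervals, with neurons above the dashed line. *Camk2a* peaks in dentate granule neurons at 1396 and 1511 CPM, whereas *Camk2d* peaks in microglia at 543 and 663 CPM and is lowest in CA1 neurons of PS19 and CA3 neurons of PZKO.

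*Camk2d*, the δ subunit best known from heart muscle, had an order unlike that of the α and β genes. Its highest level was in microglia, at 543 CPM in PS19 (1773 UMIs) and 663 CPM in PZKO (2222 UMIs), separate from the choroid plexus at 479 and 520 CPM. Among neurons it was highest in the *Cpa6* and *Ano2* group, with 337 and 404 CPM, and in near-projecting Tshz2 neurons, with 338 and 402 CPM. Upper-layer cortex neurons had 184 and 247 CPM. Principal neurons of the hippocampus were at or near the bottom, with 53.7 and 57.3 CPM in dentate granule neurons, 30.2 and 41.6 CPM in subiculum, 30.7 and 24.4 CPM in CA3 and 13.7 and 34.7 CPM in CA1. Deep-layer cortical neurons, at 68.0 and 50.5 CPM, were not separate from dentate granule neurons. The range over excitatory subtypes thus ran from 13.7 to 402 CPM, as a ratio of highest to lowest wider than for any other member. In the non-neuronal classes *Camk2d* stood at 64.6% to 666% of its level in all excitatory neurons.

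*Camk2g*, the γ subunit, was highest in astrocytes, with 457 CPM in PS19 (3701 UMIs) and 563 CPM in PZKO (6234 UMIs), and next in mural cells, with 284 and 347 CPM. Both were separate from the class below them. Deep-layer neurons had 179 and 167 CPM and dentate granule neurons 133 and 126 CPM. CA1 neurons, at 49.2 and 67.8 CPM, and CA3 neurons, at 35.4 and 38.1 CPM, were the lowest neuronal classes.

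The subunit mix, the share of each of the 4 genes in their summed UMIs, is read only between classes. *Camk2a* and *Camk2b* together took most UMIs in CA1 neurons, with 73.0% and 23.3% in PS19 and 71.8% and 22.2% in PZKO. *Camk2d* took 0.788% and 2.01% there, 35.7% and 37.4% in near-projecting neurons, and 68.9% and 71.1% in microglia. *Camk2g* took 53.8% and 57.8% in astrocytes. The non-neuronal shares of *Camk2a* and *Camk2b* include the background described above.

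**Figure D2:**
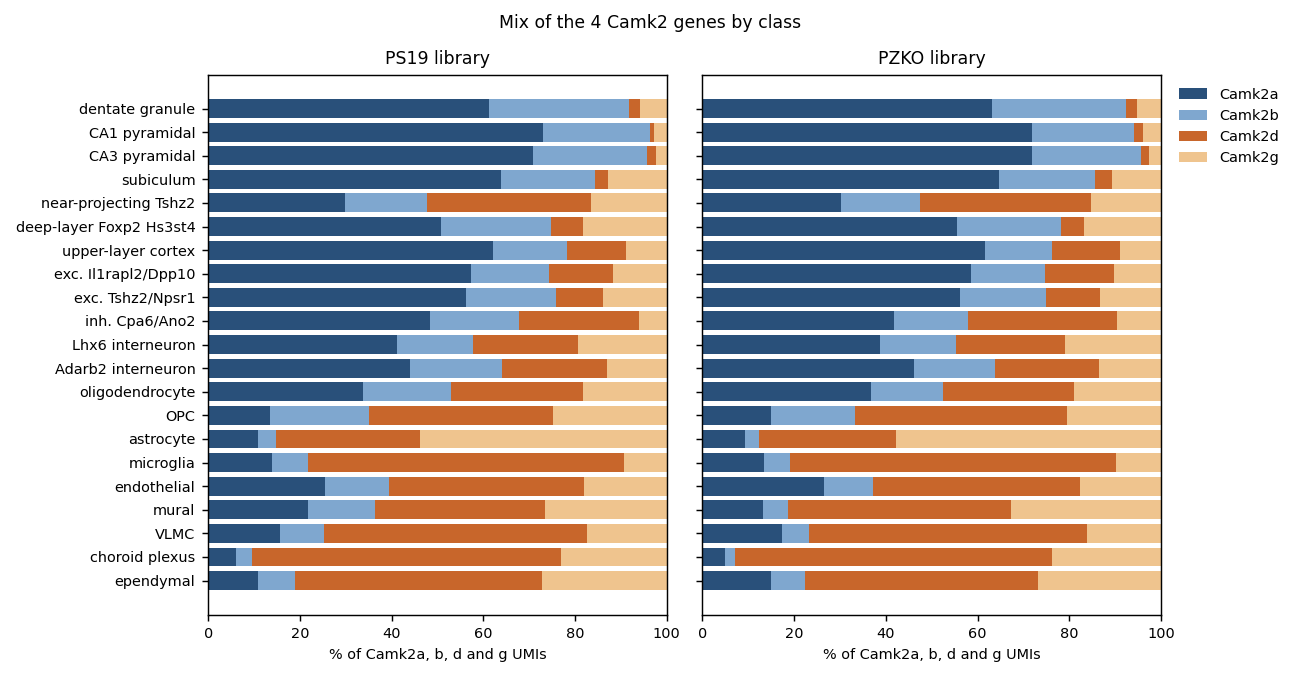
Share of *Camk2a*, *Camk2b*, *Camk2d* and *Camk2g* in their summed UMIs (percent) for each class, with the PS19 library left and the PZKO library right. In both libraries α and β fill most of the bar in dentate granule, CA1 and CA3 neurons, δ takes 68.9% and 71.1% in microglia, and γ takes 53.8% and 57.8% in astrocytes.

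*Camk4* was highest in cortical neurons, the *Il1rapl2* and *Dpp10* group and CA3 neurons. Deep-layer neurons had 350 CPM in PS19 and 387 CPM in PZKO, upper-layer neurons 355 and 328 CPM, the *Il1rapl2* and *Dpp10* group 322 and 293 CPM, and CA3 neurons 287 and 316 CPM. Dentate granule neurons had the lowest level of the excitatory subtypes, at 62.8 and 103 CPM, and Lhx6 interneurons had 53.0 and 54.2 CPM against 171 and 196 CPM in Adarb2 interneurons. Outside neurons, the choroid plexus had 131 CPM (303 UMIs) and 196 CPM (239 UMIs), or 61.1% and 71.9% of the excitatory level beside excitatory marker medians of 7.58% and 5.90%. Oligodendrocyte precursor cells (OPC) stood at 30.7% and 29.1%, and the remaining non-neuronal classes at 3.7% to 16.2%. The most similar gene over the 21 groups was the overlapping antisense gene *2310026I22Rik* (r = 0.952), whose reads cannot be told apart from those of *Camk4* without strand.

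*Camk1d* had at least 400.0 CPM in each of the 21 groups. Microglia had 2108 and 2188 CPM and endothelial cells 1967 and 2115 CPM, which did not separate from each other in both libraries but did from vascular leptomeningeal cells (VLMC) at 1494 and 1266 CPM. CA3 neurons had the highest neuronal level, with 899 and 1066 CPM, and Adarb2 interneurons the lowest, with 425 and 400 CPM. Over the 21 groups the levels of *Camk1d* and *Camk4* had a correlation of −0.712. The non-neuronal classes enter this value with *Camk4* levels that can include background.

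*Camkk2*, the upstream kinase, was highest in microglia, at 141 and 136 CPM, which was not separate from upper-layer neurons at 121 and 138 CPM. Deep-layer neurons had 80.7 and 92.6 CPM and CA1 neurons 72.4 and 71.1 CPM. Oligodendrocytes were lowest, with 10.4 and 14.3 CPM.

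Over 13009 genes with at least 1000 UMIs, the levels across the 21 groups that most resembled those of each member were those of *Sphkap* for *Camk2a* (r = 0.970), *Add2* for *Camk2b* (r = 0.970), *Tmem164* for *Camk2d* (r = 0.864), *Carmil1* for *Camk2g* (r = 0.762), *M6pr* for *Camk1d* (r = 0.916) and *Fmnl1* for *Camkk2* (r = 0.843). The next in line were *Rasgef1a* (0.959) and *Camk2b* for *Camk2a*, *Kcnj6* (0.964) and *Unc5a* (0.963) for *Camk2b*, *Cux1* (0.831) and *Stat5b* (0.809) for *Camk2d*, and *Arhgef10l* (0.747) and *Slc25a33* (0.714) for *Camk2g*. For *Camk4* they were *Pcsk2os1* (0.948) and *Hook1* (0.930), for *Camk1d* *Cyba* (0.907) and *Elk4* (0.898), and for *Camkk2* *Pip4k2b* (0.842) and *4933406I18Rik* (0.830). No p is given, since the groups share libraries, and the non-neuronal groups enter with any background they hold. Each member's own levels in PS19 and PZKO correlated at 0.955 to 0.987 over the groups.

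Within classes, most kinase levels in PZKO lay close to those in PS19. Of 126 pairs of a member and a marker-named class, 112 had the 100 UMIs over both libraries set as a minimum. PZKO was at least 1.5-fold higher in 3 of these (2.68%) and at least 1.5-fold lower in 2 (1.79%). Over all genes that met the same minimum in the same classes, 1.97% of pairs were higher and 4.25% lower by that fold, so the members' shares were near the background. The 3 higher pairs were *Camk2d* in CA1 neurons, *Camk4* in dentate granule neurons and *Camk2a* in ependymal cells, and the 2 lower pairs were *Camkk2* in OPC and *Camk2a* in mural cells. The median log2 ratio of the 112 pairs was 0.09. Medians of all genes ran from −0.09 to 0.11 in the 18 classes, with a median of −0.02, and 14 of the 18 were below 0. Scaling by TMM or by DESeq2 size factors added −0.01 to 0.12 to the ratios of a class, and the ratios that changed direction under them lay between −0.08 and −0.01.

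**Figure D3:**
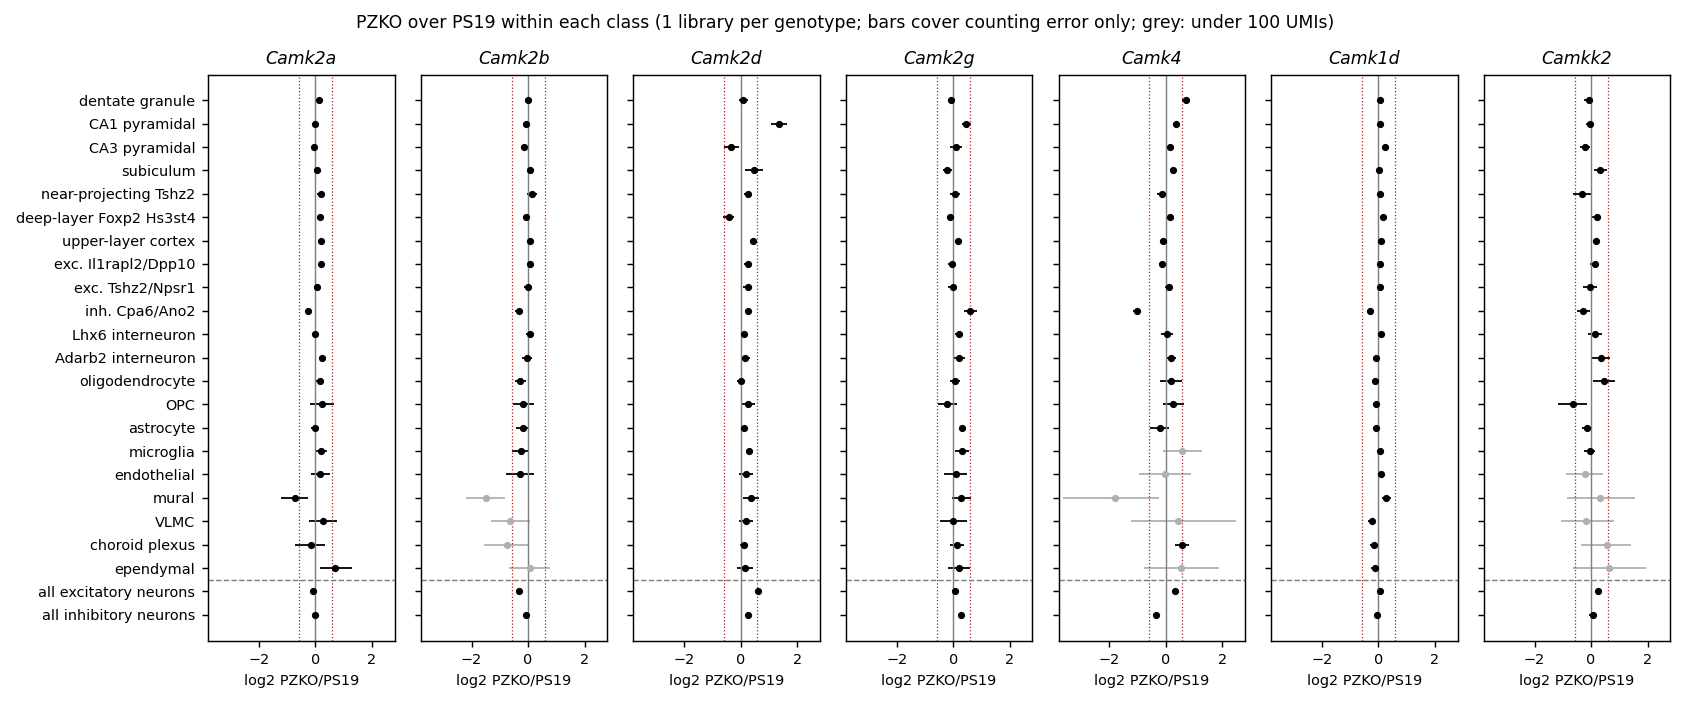
Log2 ratio of PZKO over PS19 for each kinase gene by class, with the pooled excitatory and inhibitory neurons below the dashed line; bars are exact 95% intervals that cover counting error only, dotted lines mark 1.5-fold and grey points have under 100 UMIs. The point farthest to the right is *Camk2d* in CA1 neurons at 1.34, and *Camk4* in the *Cpa6* and *Ano2* group is the lowest of the black points at −1.03.

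*Camk2d* in CA1 neurons had 13.7 CPM in PS19 (130 UMIs in 383 nuclei) and 34.7 CPM in PZKO (488 UMIs in 397 nuclei), for a log2 ratio of 1.34 (95% interval 1.06 to 1.63). In CA1, 4.6% of all genes passed the fold in either direction (1.59% higher and 3.01% lower), and *Camk2d* was the 1 member of 7 that did. The difference sat in few nuclei. *Camk2d* was at 0 in 326 PS19 nuclei (85.1%) and 304 PZKO nuclei (76.6%). Nuclei with 6 or more *Camk2d* UMIs numbered 5 in PS19 and 25 in PZKO, and they held 25.4% and 72.7% of the class's *Camk2d* UMIs. In all other CA1 nuclei the level was 10.3 CPM in PS19 and 10.2 CPM in PZKO, a split that used *Camk2d* itself and the raw count, which depends on depth. The median depth of CA1 nuclei was 23679 UMIs in the PS19 library and 32424 in the PZKO library, and thinned to 2000 UMIs per nucleus the share of nuclei with a *Camk2d* UMI was 3.1% and 4.0%.

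Markers of other classes moved with those nuclei. Of 26 marker lists, 20 had a higher summed level in the 25 PZKO nuclei than in PZKO nuclei at 0, and 10 in the 5 PS19 nuclei than in PS19 nuclei at 0. The 25 PZKO nuclei had 535 CPM of summed CA1 markers against 940 CPM in the PZKO nuclei at 0. Their CA3 markers summed to 831 against 237 CPM, their deep-layer markers to 688 against 457 CPM, and their upper-layer markers to 92.9 against 18.7 CPM. In the 5 PS19 nuclei the CA1 markers summed to 780 against 909 CPM, the CA3 markers to 603 against 223 CPM and the deep-layer markers to 269 against 397 CPM. Among CA1 nuclei whose own subtype list led (341 in PS19 and 351 in PZKO, a choice made after the counts per nucleus were seen), *Camk2d* had 11.3 and 23.8 CPM, a log2 ratio of 1.08 (0.74 to 1.42). With predicted doublets kept in the class the log2 ratio was 0.43. With nuclei thinned to 2000 UMIs, and shallower ones left out, it was 0.56. Both values were under the fold.

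*Camk4* in dentate granule neurons had 62.8 CPM in PS19 (963 UMIs in 1009 nuclei) and 103 CPM in PZKO (1150 UMIs in 514 nuclei), a log2 ratio of 0.71 (0.59 to 0.84). In this class 5.4% of genes passed the fold in either direction (0.87% higher and 4.53% lower). *Camk4* was the 1 member of 7 that did so. *Camk4* was at 0 in 59.0% of PS19 and 47.7% of PZKO nuclei. Nuclei with 6 or more UMIs numbered 30 and 63, holding 22.1% and 55.8% of the UMIs. The remaining nuclei had 51.1 and 54.9 CPM, after a split that used *Camk4* itself and the raw count, which depends on depth. The 30 PS19 nuclei had a median depth of 20432 UMIs against 13772 in those at 0, and the 63 PZKO nuclei 28254 against 17298. The median depth of the class was 14681 UMIs in the PS19 library and 20603 in the PZKO library. At 2000 UMIs per nucleus the share with a *Camk4* UMI was 10.6% and 15.6%, and the log2 ratio was 0.50, under the fold. In dentate nuclei led by their own markers the values were 56.6 and 91.0 CPM. The dentate granule markers were lower in nuclei with 6 or more *Camk4* UMIs than in those at 0, at 1843 against 2348 CPM in PS19 and 1864 against 2482 CPM in PZKO. The 63 PZKO nuclei had 399 CPM of summed upper-layer markers against 258 CPM in PZKO nuclei at 0, and 632 against 699 CPM of CA3 markers.

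**Figure D4:**
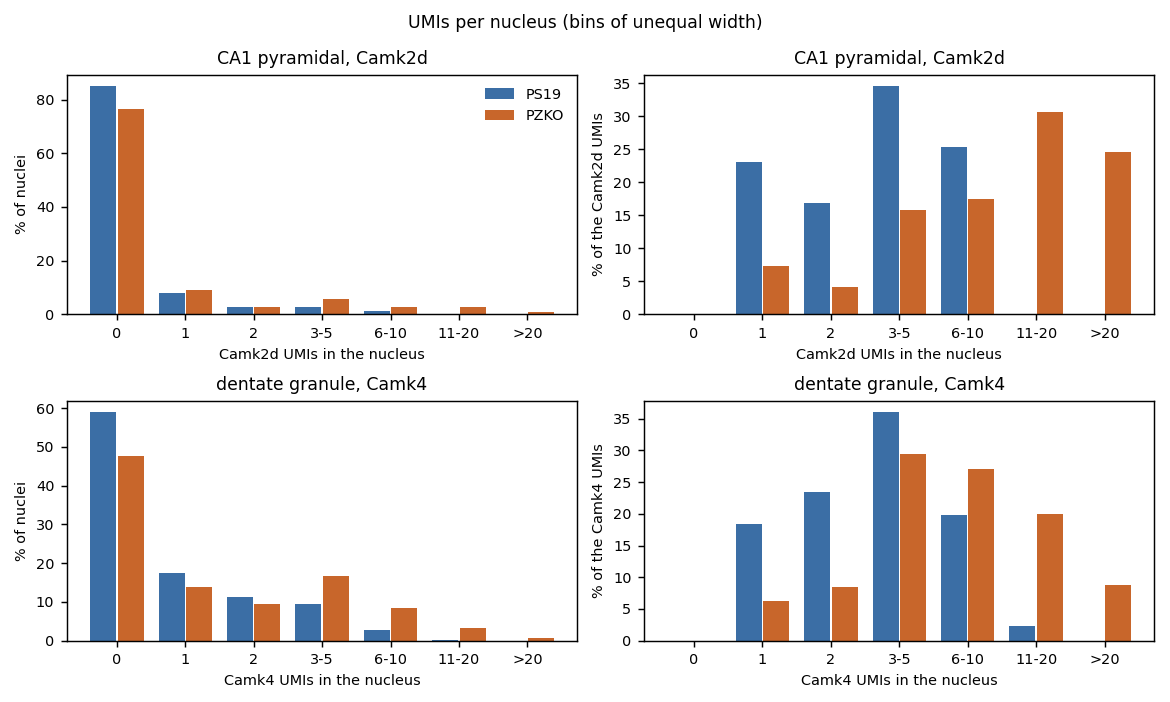
*Camk2d* UMIs per CA1 nucleus (top) and *Camk4* UMIs per dentate granule nucleus (bottom), as the percentage of nuclei (left) and of the gene's UMIs (right) in bins of unequal width, for PS19 (blue) and PZKO (orange). In the top row 85.1% and 76.6% of nuclei are at 0, and bins above 10 UMIs are filled by PZKO nuclei.

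The inhibitory group led by *Cpa6* and *Ano2* (130 nuclei in PS19 and 157 in PZKO) had the lowest ratio of the tested pairs. *Camk4* had 282 CPM (790 UMIs) in PS19 and 138 CPM (807 UMIs) in PZKO. The log2 ratio was −1.03 (−1.18 to −0.89). *Camk2g* had 78.6 and 119 CPM, a log2 ratio of 0.60 (0.38 to 0.83). These 2 of 7 members passed the fold in a group where 14.1% of all genes did. Its summed CA1 markers, at 500 CPM, were the highest outside CA1 neurons in PS19. In PZKO subiculum held that place, at 426 CPM. The group's summed OPC markers were the highest outside OPC, at 1025 and 1426 CPM beside 16471 and 16160 CPM in OPC. Whether the group mixes cell types was not tested. Free RNA was estimated at 9.83% of its UMIs in PS19 and 24.4% in PZKO, taking all UMIs of choroid plexus markers as free RNA. Of these markers, *Ttr* had 194 CPM in PS19 and 24.7 CPM in PZKO, beside 413 and 57.4 CPM over all kept nuclei. The summed markers reached 646 CPM in the PZKO group, the highest outside the choroid plexus. Whether the group makes some of them itself was not tested, so the estimate can be too high. With this estimate subtracted *Camk2g* was at 0.56, under the fold, and *Camk4* at −1.63. The median nucleus did not follow the sum for *Camk4*, with 98.7 CPM in PS19 and 113 CPM in PZKO. Nuclei with 6 or more UMIs numbered 37 in PS19 and 55 in PZKO and held 81.5% and 73.4% of the group's *Camk4* UMIs. The highest nucleus had 68 UMIs in PS19 and 21 in PZKO.

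The other pairs past the fold rested on few UMIs, and the shares of genes given beside them count both directions. *Camk2a* in mural cells had 234 CPM (94 UMIs) in PS19 and 140 CPM (70 UMIs) in PZKO, with a log2 ratio of −0.74 in a class where 18.3% of genes passed, and 4 PS19 nuclei held 69 of the 94 UMIs. Its sign turned in 3 of 11 alternatives. In ependymal cells it had 54.3 CPM (46 UMIs) and 88.8 CPM (68 UMIs), a log2 ratio of 0.71 (0.15 to 1.28), where 7.95% passed, and 0.37 with doublets kept. *Camk2a* there stood at 5.4% and 9.4% of its excitatory level beside marker medians of 10.2% and 7.77%. With free RNA subtracted no ratio was left for this pair, so background cannot be told apart from a low level. *Camkk2* in OPC had 43.1 CPM (64 UMIs) and 27.4 CPM (65 UMIs), a log2 ratio of −0.65 (−1.18 to −0.13), where 8.94% passed, and it stood under the fold with TMM (−0.56), with DESeq2 size factors and with doublets kept. No tested member passed the fold in the choroid plexus (6.36% of genes did) or in VLMC (14.0%). *Camk4* in the choroid plexus came nearest, with a log2 ratio of 0.57 (0.32 to 0.82), and was past the fold under TMM (0.62) and DESeq2 size factors (0.64).

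Of all members *Camk2d* was most often higher in PZKO, with a log2 ratio above 0 in 19 of 21 groups and a median of 0.20. The groups share the same 2 libraries, so such counts are not of independent observations, and the share of all genes reaching them was not computed. *Camk2d* was 0.29 (0.20 to 0.38) in microglia, 0.42 in upper-layer neurons, 0.13 in astrocytes and 0.37 in mural cells. Among upper-layer nuclei led by their own marker list it was 0.23 (0.09 to 0.36). In Lhx6 interneurons it was 0.13, and −0.10 (−0.26 to 0.07) among nuclei led by their own marker list. Deep-layer neurons, at −0.43 (−0.62 to −0.24), and CA3 neurons, at −0.33, were the exceptions. *Camk2g* was above 0 in 15 of 21 groups, with 0.30 in astrocytes. *Camk1d* was above 0 in all 9 excitatory subtypes, from 0.02 in subiculum to 0.24 in CA3 and also under both other scalings. Among nuclei led by their own marker list it was −0.06 in subiculum and −0.07 in near-projecting neurons. In the other marker-named excitatory subtypes it stayed above 0 in such nuclei. *Camk2b* was above 0 in 6 of 17 tested groups, and its 9 excitatory ratios ran from −0.13 to 0.13.

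Summed over all excitatory neurons, *Camk2d* had 81.5 CPM in PS19 (4748 UMIs) and 125 CPM in PZKO (11611 UMIs). The log2 ratio was 0.61 (0.56 to 0.66). It was the 1 member of 7 past the fold, which 7.42% of genes passed in either direction (2.39% higher and 5.03% lower). *Camk2d* is a gene the study named from these same libraries, so this value is not independent evidence. The make-up of the pool differed between the libraries. Dentate granule nuclei, where *Camk2d* is low, were 36.7% of excitatory nuclei in PS19 and 17.2% in PZKO, and upper-layer nuclei, where it is higher, were 8.87% and 17.1%. The 11 excitatory clusters were then each given the same weight in both libraries, namely the cluster's mean share of UMIs over the libraries. With these shared weights *Camk2d* had 91.8 and 110 CPM, a log2 ratio of 0.26. *Camk2b* moved from −0.32 (398 and 319 CPM) to −0.02, *Camk4* from 0.34 to 0.12 and *Camkk2* from 0.25 to 0.06. *Camk2a* turned from −0.09 to 0.07, *Camk1d* went from 0.06 to 0.10 and *Camk2g* from 0.08 to 0.01. With 1 library per genotype, a difference in make-up between genotypes cannot be told apart from one in dissection. In all inhibitory neurons no member passed the fold (6.85% of genes did), and the ratios were 0.26 for *Camk2d*, 0.29 for *Camk2g* and −0.36 for *Camk4*, although *Camk4* stood at 0.03 in Lhx6 and 0.20 in Adarb2 interneurons.

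**Figure D5:**
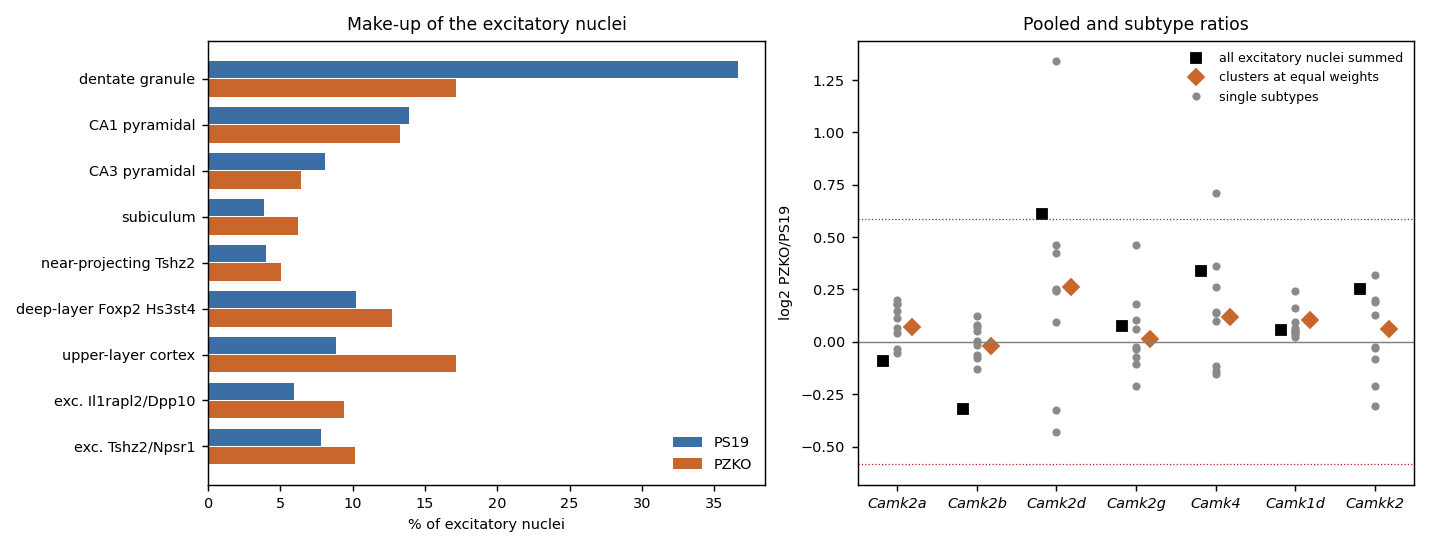
Left, percentage of excitatory nuclei in each subtype for PS19 (blue) and PZKO (orange), without a small group of 0.654% and 2.47% led by *Zfp804b* and *Sgcz*. Right, log2 PZKO over PS19 for all excitatory nuclei summed (squares) and for single subtypes (grey points). Diamonds, labelled equal weights, give each cluster the same weight in both libraries. Dotted lines mark 1.5-fold, and *Camk2d* goes from 0.61 to 0.26 with the shared weights.

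Around the kinases, a list of 50 other genes of calmodulin signalling gave 667 tested pairs in the 18 classes, of which 14 (2.10%) were at least 1.5-fold higher and 33 (4.95%) at least 1.5-fold lower in PZKO, near the 1.97% and 4.25% of all genes, with a median log2 ratio of 0.04. *Calm2*, which encodes calmodulin, was below 0 in 16 of 18 classes with a median log2 ratio of −0.34, and *Calm3* in 16 of 16 with a median of −0.30. Each passed the fold in 2 classes. In dentate granule neurons *Calm2* had 433 CPM in PS19 and 325 CPM in PZKO. *Nrgn*, which encodes the calmodulin-binding protein neurogranin, was below 0 in 18 of 18 classes with a median of −0.49, and 6 passed the fold, non-neuronal classes included. The CaMKII inhibitor genes *Camk2n1* and *Camk2n2* had medians of −0.19 over 18 classes and −0.48 over 7. *Ppp3ca*, the calcineurin catalytic subunit, had a median of 0.04 and passed in no class. Calmodulin-dependent cyclases and phosphodiesterases were above 0 in 56 of 72 pairs, 5 of them past the fold. The share of mitochondrial UMIs over all kept nuclei was also lower in PZKO. So was the estimated share of free RNA in glia. It was 12.4% and 4.13% in microglia, 12.9% and 3.75% in oligodendrocytes and 6.43% and 2.26% in astrocytes. In excitatory subtypes *Calm3* and *Nrgn* were below 0 in 9 of 9. The free RNA estimate there, which takes all UMIs of choroid plexus markers as free RNA, went both ways. It was higher in PZKO in CA3 neurons (2.93% and 6.21%), CA1, subiculum, near-projecting and upper-layer neurons and the *Tshz2* and *Npsr1* group. It was lower in dentate granule neurons (4.09% and 2.59%), deep-layer neurons and the *Il1rapl2* and *Dpp10* group. Of the choroid plexus markers, *Ttr* had 107 CPM in PS19 and 11.2 CPM in PZKO in CA3 neurons. In dentate granule neurons it had 235 and 27.2 CPM. Whether neurons make some of the other markers was not tested, and neither was the part of either share in these values.

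By count, the group with the most of these genes past the fold was again the inhibitory one led by *Cpa6* and *Ano2*, with 3 higher and 9 lower of 45, beside 6.45% of all genes higher and 7.68% lower there. In VLMC 8 of 24 passed, a larger share. The higher genes were *Adcy8*, a calmodulin-stimulated adenylyl cyclase, with a log2 ratio of 1.02, the calcineurin subunit *Ppp3cc* with 0.90, and *Prkaa2*, a catalytic subunit of AMP-activated kinase, with 0.61. The lower genes included the phosphodiesterases *Pde1b* with −1.45 and *Pde1c* with −0.84, *Pcp4* with −1.02, *Nrgn* with −0.83, *Itpka* with −0.80, *Calm2* with −0.69, the pseudokinase *Camkv* with −0.69 and *Ppp3r1* with −0.61. Each library holds few nuclei of this group, and no second library shows how far such ratios vary.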

How the data were processed

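Hippocampal nuclei of 1 PS19 and 1 PZKO library were analysed. The authors deposited UMI counts per gene and nucleus as whole numbers, without normalization, made with Cell Ranger on mm10 (version 7.0.1 in the submitters' processing notes, 8.0.1 in the matrix headers). The notes also name Seurat. The ambient RNA correction, nucleus filter and doublet removal in the study's methods are not in these counts. Whether the hippocampi of a genotype were pooled before or after nuclei were isolated is not clear, since the labels state both pooling and separate processing.

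Nuclei below 600 UMIs or 300 genes, or above 5% mitochondrial UMIs, were dropped, leaving 10466 and 10128. Doublets were predicted from simulated pairs of nuclei at a rate of 0.8% per 1000 nuclei, and 876 and 821 were removed. Counts were clustered with Scanpy 1.11.5 and leidenalg 0.10.2 (2000 variable genes without the kinases and pathway genes, 30 components, resolution 1) into 36 clusters, named from marker lists. Thresholds that left 467 and 391 nuclei without a name were chosen once the clusters had been inspected. Counts were summed by class and library and given as CPM with exact Poisson 95% intervals, and ratios with exact binomial 95% intervals, computed with SciPy 1.17.1. The computation was checked on counts simulated with Poisson error alone. That check cannot show whether the intervals hold where UMIs cluster in few nuclei. A gene entered a class from 100 UMIs summed over the libraries, a class from 50 nuclei in each library, and 1.5-fold was the limit. UMIs were thinned to 2000 per nucleus for shares and for the depth alternative, and nuclei under 2000 UMIs were left out. Intervals cover counting error only. The methods' pseudobulk DESeq2 test was not run, since 1 library per genotype leaves no spread. edgeR 4.0.16 and DESeq2 1.42.0 gave alternative scalings only.

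The kinases, pathway list and markers were chosen with earlier results of these data known. Named genes were all members, the pathway genes past the fold in the class with most of them, *Camk2n1*, *Camk2n2*, *Calm2*, *Calm3*, *Nrgn* and *Ppp3ca*, and the 3 genes most like each member. A result that the rule also named is not reported here. Alternatives changed the scaling, count minimum, averaging, depth, filters, doublets, clustering, free RNA and subtype weights.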

Additional observations from a re-analysis of the deposited data

How the results depend on the processing

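No paired analysis was possible because each genotype has 1 library. Of 1468 ratios recomputed under 13 alternatives (1 chosen after seeing the data), 1348 kept their sign and 120 did not. Of the sign changes, 75 were for reported values within 0.12 of 0. By size, 1233 ratios stayed within their reported interval and 232 moved outside it. The remaining 3 were counted apart, as sign changes of a value past the fold. Thinning to 2000 UMIs moved 68 of 140 ratios outside their interval, and subtracting free RNA 45 of 128. The cause was not tested for the sign changes or for these moves. The 3 sign changes of a value past the fold were for *Camk2a* in mural cells, −0.74 as reported, at 0.41 with the mean over nuclei, 0.65 thinned to 2000 UMIs and 0.069 with each library clustered on its own. Pairs at least 1.5-fold higher in PZKO, 3 as reported, numbered 8 when thinned to 2000 UMIs, 5 with each library clustered on its own and 12 with free RNA subtracted. The subtraction left 102 tested pairs, beside 112 as reported. Pairs at least 1.5-fold lower, 2 as reported, numbered 1 under TMM, DESeq2 size factors, the mean over nuclei, the stricter filter and separate clustering, 4 with a minimum of 20 UMIs per library or when thinned, and 6 with a minimum of 1 UMI or free RNA subtracted. *Camk2d* in all excitatory neurons, 0.61 as reported, was 0.69 under TMM, 0.70 under DESeq2, 0.47 thinned and 0.26 with the shared cluster weights. Under those weights *Camk2a* turned from −0.09 to 0.07. *Camk2d* in CA1 ranged from 0.43 to 1.68 and passed the fold in 9 of 11 alternatives, and *Camk4* in dentate granule neurons from 0.50 to 0.80 in 10 of 11. Groups called by their leading genes were not recomputed under the other clusterings. Depth limits the classes with few UMIs, where 14 pairs fell under 100.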
